A study of Homo sapiens with 6 samples.

Results

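A set of 20 genes, of 57445 in the count table, reached at least 2 times the level of the parental line in every library of 2 mutant clones, by a rule given below. The cells were H358, an established human lung cancer line of bronchioalveolar origin. The clones C1 and C2 are each listed as isogenic and as BRMS1v2 A273V on both copies, and the parental line (WT) is listed as wild type for BRMS1, a metastasis suppressor of the SIN3-HDAC co-repressor complex. All groups were grown in RPMI medium with serum, and each had 2 libraries. How the clones arose, and whether a replicate is a culture of its own, is not given in the labels, so p-values and intervals measure only the spread between these libraries. Libraries of a group differed well beyond counting noise, with a chi-square per gene of 119 in C1, 105 in C2 and 90.7 in WT. Each clone group is 1 clone, and a difference that comes with picking a clone cannot be told apart from an effect of the variant.

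Members were chosen by their level in CPM, the read count of a gene scaled to the same total of gene reads in every library. Each of the 4 clone libraries had to reach 1 CPM and 2 times the higher WT library. Of 13252 genes at 1 CPM or more in all clone libraries, 25 met both limits, which is 0.189%. The 5 left out by name were DHRS9, CEACAM6, HEPH, PAEP and MUC13. Turned round, the same limits held for 176 genes that were lower in the clones, 1.26% of the 13933 genes at 1 CPM in both WT libraries. Because these values chose the members, clone and WT levels are given below as a description with no test. All 20 members passed the filter on low counts that the tests below used. The list depended on single libraries. It held 55 genes without WT replicate 1, 59 without WT replicate 2, 34 without C1 replicate 2 and 38 without C2 replicate 1. Leaving out a library can only relax the limits, so all 20 members stay in these longer lists by construction.

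Gene counts ran from 27527867 to 37146270 per library. The cells carried the marks of lung epithelium: 10 of 10 epithelial markers reached 1 CPM in at least 1 library, EPCAM at 628 to 919 CPM, and NKX2-1, the lung lineage factor, at 70.3 to 158 CPM. Of 10 alveolar and club cell markers 3 reached 1 CPM, and SCGB1A1 was at 0 in every library. Immune markers summed to 2.68 to 5.85 CPM per library, fibroblast markers to 37.6 to 70.6 CPM and endothelial markers to 9.99 to 42.4 CPM, the last with C1 replicate 2 highest and WT replicate 1 lowest. Most of the endothelial sum was 1 gene, KDR, at 38.4 CPM in C1 replicate 2 and 7.58 CPM in WT replicate 1. CDH5, another endothelial marker, lay above WT in all clone libraries. It was at 2.21 and 2.44 CPM in C1, 1.68 and 1.48 CPM in C2, and 1.07 and 0.363 CPM in WT. Of 8 fibroblast markers only 2, COL1A1 and LUM, reached 1 CPM. These sums were not used to judge whether other cell types were present. The part of these markers in the members' levels was not tested. BRMS1 itself was at 25.6 and 30.1 CPM in C1, 27.3 and 25 CPM in C2, and 43.6 and 37.4 CPM in WT, and gene counts do not show the allele. Replicates of a group differed in proliferation genes: summed over 12 proliferation genes, replicate 2 held 339, 915 and 1110 CPM in C1, C2 and WT, and replicate 1 held 2340, 2690 and 2460 CPM.

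By their known functions the members are mixed, and no test of gene sets was run. They hold surface receptors and a receptor partner (IL18R1, RAMP1, CYSLTR1) and adhesion and guidance proteins of neurons (NTNG1, LRRC4). They also hold intracellular signalling and calcium-binding proteins (PRR5L, RND1, CALB2) and enzymes of glycan, steroid and amino acid metabolism (ST3GAL1, GALNT5, HSD11B1, HGD). The others are a transporter (SLC1A1), secreted proteins (F5, PSG1), BTBD11, ARMCX4 and 2 long intergenic RNAs (RP11-527H14.3, RP11-230G5.2). The last is SLC22A20, named as a transporter gene but typed as a pseudogene in GENCODE 29. G protein-coupled and cytokine receptors carry outside signals into the cell, and glycosyltransferases of the Golgi build the sugar chains on mucins and surface proteins, which lung adenocarcinoma cells make in quantity. The mean level in C1 was 2.89 to 7.32 times that in WT across members, with a median of 4.25, and in C2 it was 2.38 to 13.8 times, with a median of 4.38. Both sets of ratios use the same 2 WT libraries. Within same-numbered libraries, the ratios of clone to WT ran from 2.08 to 16.5. Among all 17129 genes that passed the filter on low counts, 7.3% lay above both WT libraries in all 4 clone libraries and 17.1% lay below, which is the background for the related genes described below. The bulk libraries cannot tell more cells with a transcript from more transcript per cell.

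**Figure D1:**
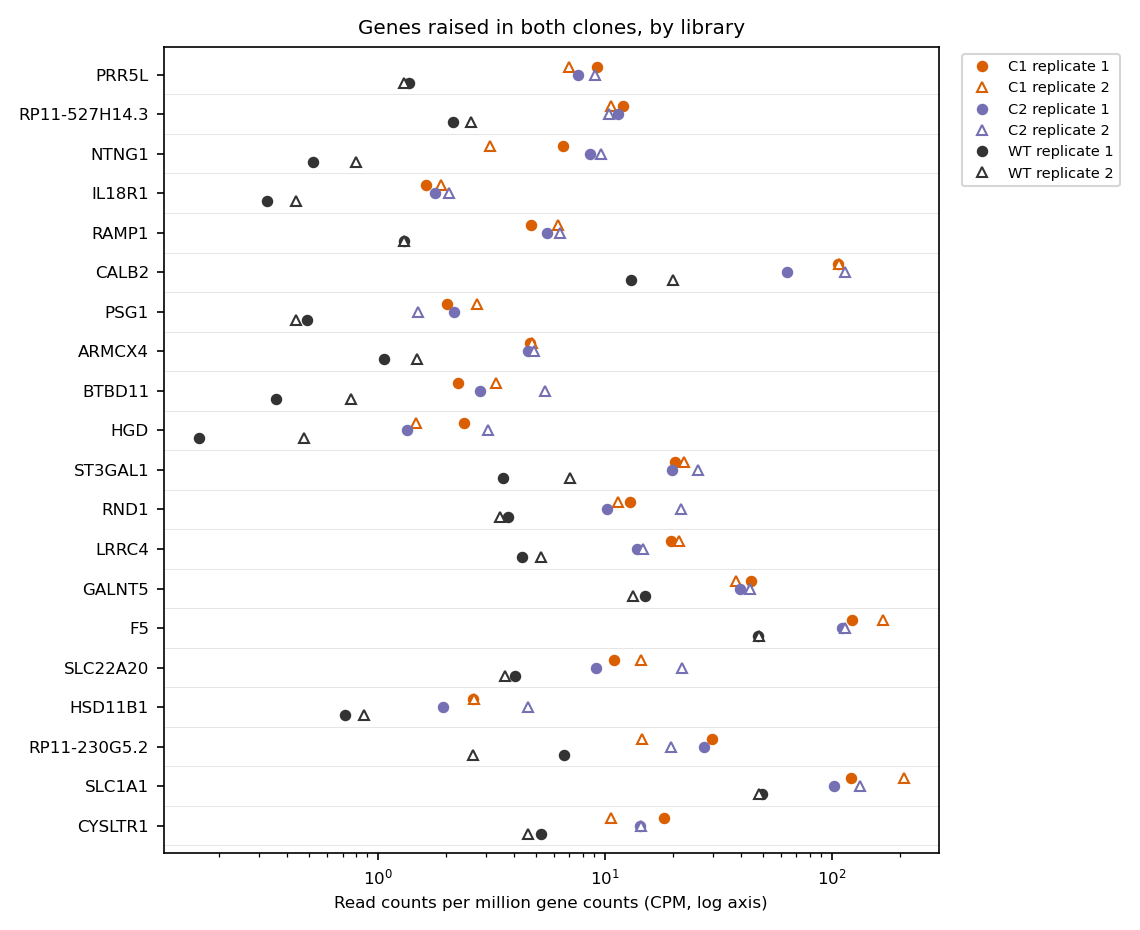
Level of each of the 20 members in each of the 6 libraries, in CPM on a log axis, with C1, C2 and WT in separate colours, replicate 1 as filled circles and replicate 2 as open triangles. The clone libraries lie right of both WT libraries in every row, as the choice of members requires; the gap between the lowest clone library and the highest WT library narrows from 5.1 times for PRR5L at the top to 2.03 times for CYSLTR1 at the bottom.

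Promoter sequence is shown for members whose upstream bases overlap no annotated exon, since start sites and motifs are what the count table cannot show. The 250 bases before the start come from RefSeq on GRCh38.p14, while the counts were made on hg19. PRR5L (chr11:36296038-36296287 and chr11:36375735-36375984, plus strand), which had the widest gap between clones and WT, has 3 annotated starts, and the first 2 are shown. IL18R1 (chr2:102355546-102355795, plus strand), BTBD11 (chr12:107320338-107320587, plus strand; ABTB3 in RefSeq) and ARMCX4 (chrX:101418028-101418277, plus strand) follow. The bases after the start lay in an annotated transcript for PRR5L start 1 and BTBD11 start 2. This was not so for PRR5L start 2, IL18R1 start 1 and ARMCX4 start 1. For IL18R1 and ARMCX4 it held at start 2, which is not shown because its upstream bases overlap an exon. Whether the cells use any of these starts was not tested. Capitals mark matches to any of 13 motifs searched on both strands.
PRR5L start 1: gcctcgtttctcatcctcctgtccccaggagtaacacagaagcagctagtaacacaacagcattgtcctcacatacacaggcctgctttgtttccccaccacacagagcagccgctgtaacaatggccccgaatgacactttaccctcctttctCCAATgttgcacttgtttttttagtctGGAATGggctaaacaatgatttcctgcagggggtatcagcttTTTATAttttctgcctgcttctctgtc
PRR5L start 2: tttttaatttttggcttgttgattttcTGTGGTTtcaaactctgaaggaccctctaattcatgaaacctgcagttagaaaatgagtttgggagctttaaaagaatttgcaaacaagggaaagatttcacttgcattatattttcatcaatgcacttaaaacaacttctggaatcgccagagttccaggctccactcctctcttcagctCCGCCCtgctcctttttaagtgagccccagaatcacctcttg
IL18R1 start 1: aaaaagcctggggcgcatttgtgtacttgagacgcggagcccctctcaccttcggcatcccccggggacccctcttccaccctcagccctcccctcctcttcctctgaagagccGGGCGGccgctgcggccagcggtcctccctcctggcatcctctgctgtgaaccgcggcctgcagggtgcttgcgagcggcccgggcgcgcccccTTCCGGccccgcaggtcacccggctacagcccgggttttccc
BTBD11 start 2: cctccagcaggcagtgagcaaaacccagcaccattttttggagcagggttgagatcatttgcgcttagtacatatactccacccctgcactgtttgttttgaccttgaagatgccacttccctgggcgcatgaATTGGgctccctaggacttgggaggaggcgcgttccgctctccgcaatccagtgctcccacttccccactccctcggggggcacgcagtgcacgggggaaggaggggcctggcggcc
ARMCX4 start 1: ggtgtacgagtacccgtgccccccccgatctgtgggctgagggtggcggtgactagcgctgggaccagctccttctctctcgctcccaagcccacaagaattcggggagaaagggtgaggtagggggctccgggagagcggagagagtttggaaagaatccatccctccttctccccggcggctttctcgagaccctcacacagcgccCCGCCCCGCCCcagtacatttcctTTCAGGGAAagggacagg

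The first PRR5L start had a match to the TATA box (TATAAA, here on the minus strand) at -27, one to TEAD (GGAATG) at -69 and one to the CCAAT box at -96, counted from the start of transcription, with 47.6% GC. Its second start had a RUNX match (TGTGGTT) at -223 and a minus-strand SP1 match (GGGCGG) at -42, with 40% GC. The IL18R1 window held 70.4% GC, an SP1 match at -136 and a minus-strand ETS match (CCGGAA) at -42. ARMCX4 had minus-strand SP1 matches that overlap by 1 base at -42 and -37 and a STAT match (TTCNNNGAA) at -18, and BTBD11 a minus-strand CCAAT box match at -117. Among 16622 upstream windows of tested genes, 6.45% held the TATA box letters, 9.95% TEAD, 32.9% CCAAT, 2.87% RUNX, 60.9% SP1, 21.6% ETS and 5.53% STAT. The AP-1 letters (TGANTCA), the site of FOS and JUN, stood in 4.68% of all windows and in 1 of the 18 windows of members, upstream of another BTBD11 start at -64. The search also covered CRE with the letters TGACGT and the E-box with CACGTG. NF-kappaB was searched as GGANTTCC, an inflammatory factor's site. For GATA factors the letters were AGATAA, and for FOXA, a lung lineage factor family, they were TGTTTAC. RefSeq windows were matched for 10 of the 20 members, so a comparison of promoters between members and other genes is void.

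Among the receptors, IL18R1, the chain of the interleukin 18 receptor that binds the cytokine, was at 1.64 and 1.91 CPM in C1, 1.78 and 2.06 CPM in C2, and 0.325 and 0.436 CPM in WT. The clones did not separate from each other, and WT rested on 10 and 12 reads. Its signalling partner IL18RAP was at 0.134 CPM or less in every library. IL1RL1, the interleukin 33 receptor next to IL18R1 and overlapping it on the same strand in GENCODE 29, missed the list by its level: it was at 0.781 and 0.938 CPM in C1, 1.17 and 0.738 CPM in C2, and 0.195 and 0.254 CPM in WT. Both receptors were thus low in WT and above WT in each clone library, and how the deposited counts treated reads in shared exons is not given. Of the 6 tested relatives, IL18BP, which neutralises interleukin 18, and IL1RAP, the shared signalling chain of interleukin 1 receptors, lay below WT in all clone libraries, with IL1RAP at 21.5 and 27.8 CPM in C1, 18 and 22.5 CPM in C2, and 34.4 and 42.5 CPM in WT.

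RAMP1, which joins the receptor CALCRL to form the receptor of calcitonin gene-related peptide, was at 4.74 and 6.26 CPM in C1, 5.6 and 6.34 CPM in C2, and 1.3 and 1.31 CPM in WT. WT libraries were almost alike, and replicate 2 was the higher one in both clones. CALCRL was lower in the clones, with 0.592 and 0.502 CPM in C1, 0.57 and 0.646 CPM in C2, and 1.85 and 2.4 CPM in WT. The other accessory proteins RAMP2 and RAMP3 and the peptide genes CALCA and CALCB had no read in any library. ADM, the gene of the related peptide adrenomedullin, lay above WT in all clone libraries, at 12.6 and 12.1 CPM in C1, 10.8 and 15.1 CPM in C2, and 9.27 and 5.96 CPM in WT.

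CYSLTR1, a receptor of cysteinyl leukotrienes, was at 18.3 and 10.7 CPM in C1, 14.3 and 14.5 CPM in C2, and 5.27 and 4.58 CPM in WT. It was the member closest to the limit, through C1 replicate 2. The second receptor, CYSLTR2, was at 0.915 and 2.61 CPM in C1, 1.01 and 3.51 CPM in C2, and 0.716 and 1.34 CPM in WT, where the groups overlapped although both clones were above WT within each replicate number. Of the enzymes that make the ligands, ALOX5 and LTC4S had no read, and LTA4H, which leads to another leukotriene, lay above WT in all clone libraries, at 317 and 217 CPM in C1, 257 and 265 CPM in C2, and 216 and 175 CPM in WT. ABCC1, which exports the cysteinyl leukotriene made by LTC4S, lay below WT, at 75.6 and 74.3 CPM in C1, 74.5 and 80.6 CPM in C2, and 92.9 and 106 CPM in WT.

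NTNG1 and LRRC4 encode netrin G1 and netrin-G ligand 2, surface proteins of the synapse, where netrin G1 pairs with the ligand encoded by LRRC4C and LRRC4 with netrin G2. NTNG1 was at 6.54 and 3.11 CPM in C1, 8.61 and 9.66 CPM in C2, and 0.521 and 0.799 CPM in WT. Its C2 libraries were both above its C1 libraries, and it had the widest range among clone libraries of all members, 3.1 times from lowest to highest. LRRC4 was at 19.7 and 21.3 CPM in C1, 13.9 and 14.7 CPM in C2, and 4.33 and 5.27 CPM in WT, so here both C1 libraries were above both C2 libraries. LRRC4 overlaps SND1 on the opposite strand in GENCODE 29; SND1 was at 158 and 154 CPM in C1, 152 and 179 CPM in C2, and 182 and 187 CPM in WT, thus below WT in every clone library. The binding partners LRRC4C and NTNG2 stayed at or below 0.277 CPM in all libraries. LRRC4B, the third gene of the ligand family, was lower in the clones, with 0.0808 and 0.134 CPM in C1, 0.168 and 0.215 CPM in C2, and 1.43 and 1.78 CPM in WT.

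PRR5L, a protein that binds mTOR complex 2, a kinase complex acting on AKT, was at 9.23 and 6.97 CPM in C1, 7.64 and 9.07 CPM in C2, and 1.37 and 1.31 CPM in WT. No other member had so wide a gap, and the clone libraries lay within 1.33 times of each other. Of 6 tested genes of the complex and its relatives, MAPKAP1, a core subunit, was above WT in all clone libraries, at 149 and 168 CPM in C1, 164 and 147 CPM in C2, and 113 and 124 CPM in WT. The related PRR5 overlapped between groups, at 1.1 and 2.08 CPM in C1, 1.68 and 2.61 CPM in C2, and 2.64 and 2 CPM in WT. The kinase MTOR and its partner RICTOR also overlapped, but within each replicate number both were lower in both clones than in WT. MTOR was at 64.5 and 95.6 CPM in C1, 81.9 and 86.4 CPM in C2, and 91.9 and 97 CPM in WT. MLST8 had the same order as MTOR, and DEPTOR was higher in both clones within each number.

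RND1, a small GTPase that loosens actin stress fibres, was at 12.9 and 11.5 CPM in C1, 10.2 and 21.6 CPM in C2, and 3.74 and 3.45 CPM in WT. C2 replicate 2 stood above the other 3 clone libraries. Of its relatives, RHOB lay above WT in all clone libraries, at 101 and 125 CPM in C1, 107 and 113 CPM in C2, and 86.4 and 77.3 CPM in WT. RND2, RND3, RHOA and RHOC overlapped with WT. Compared within each replicate number, both clones were below WT for RND2 and above WT for RHOC.

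CALB2, or calretinin, a calcium-binding protein of neurons and mesothelium, was at 107 and 108 CPM in C1, 63.5 and 115 CPM in C2, and 13.1 and 20.1 CPM in WT. Per kilobase of annotated exon it was the most abundant member in both clones, with means of 63.1, 52.5 and 9.77 CPM per kilobase in C1, C2 and WT, and second to SLC1A1 in WT. C2 replicate 1 was the lowest clone library. The other 5 mesothelial markers together held 0.485 and 2.04 CPM in C1, 0.57 and 2.25 CPM in C2, and 1.27 and 4.54 CPM in WT, and the gene WT1, a defining mesothelial marker, was at 0 in every library. CALB1, the related calbindin, overlapped between groups and was higher in replicate 2 of each group. In replicate 2 it was lower in both clones than in WT, with 10.6, 15.4 and 28.2 CPM in C1, C2 and WT. In replicate 1 it was low throughout and almost equal in C2 and WT, at 0.565, 0.704 and 0.716 CPM in C1, C2 and WT.

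BTBD11, an ankyrin and BTB domain protein, was at 2.26 and 3.32 CPM in C1, 2.81 and 5.44 CPM in C2, and 0.358 and 0.763 CPM in WT. In each group replicate 2 was the higher library. Its relative ABTB2 lay slightly above WT in all clone libraries, at 16.3 and 19.1 CPM in C1, 16 and 17.4 CPM in C2, and 13.6 and 15.5 CPM in WT. ARMCX4, an armadillo repeat protein of the X chromosome, was the most even member among the clones, at 4.71 and 4.79 CPM in C1, 4.59 and 4.89 CPM in C2, and 1.07 and 1.49 CPM in WT. None of the 6 tested relatives, 5 ARMCX genes and ARMC10, lay above WT in all clone libraries. ARMCX1 missed this by C2 replicate 1 alone, at 1.62 and 1.84 CPM in C1, 1.11 and 1.85 CPM in C2, and 0.618 and 1.13 CPM in WT, and within each replicate number both clones were above WT. ARMCX5 and ARMCX2 lay below WT, ARMCX2 at 3.04 and 5.86 CPM in C1, 3.55 and 4.46 CPM in C2, and 7.45 and 10.4 CPM in WT.

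ST3GAL1 and GALNT5 act on mucin-type O-glycans: GALNT enzymes attach the first sugar to serine or threonine, and ST3GAL1 caps the core 1 chain with sialic acid. ST3GAL1 was at 20.4 and 22.3 CPM in C1, 19.8 and 25.9 CPM in C2, and 3.55 and 7.01 CPM in WT. GALNT5 was at 44.2 and 38 CPM in C1, 39.3 and 43.5 CPM in C2, and 15.1 and 13.3 CPM in WT. Clone libraries of GALNT5 stayed within 1.16 times of each other. Of 13 other tested GALNT genes, GALNT6, GALNT12 and GALNT14 lay above WT in all clone libraries and GALNT13 below. GALNT18 overlapped with WT but was lower in both clones within each replicate number. It was at 7.75 and 1.84 CPM in C1, 9.35 and 3.57 CPM in C2, and 15.6 and 7.16 CPM in WT. GALNT1, GALNT7 and GALNT11 also overlapped and were higher in both clones within each number. GALNT6 came near the limit of the list, at 279 and 252 CPM in C1, 242 and 295 CPM in C2, and 140 and 113 CPM in WT.

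The core 1 chain is built by C1GALT1 and branched by GCNT1, and both lay above WT in all clone libraries. C1GALT1 was at 58.5 and 72.4 CPM in C1, 55.7 and 62 CPM in C2, and 38.2 and 52.6 CPM in WT. GCNT1 was at 182 and 124 CPM in C1, 164 and 138 CPM in C2, and 115 and 114 CPM in WT. Among sialyltransferases ST3GAL2 and ST6GALNAC2 lay below WT, so the pattern of ST3GAL1 was not shared by all of the ST3GAL family. ST6GALNAC1 was higher in replicate 2 of each group and, within each replicate number, in both clones than in WT, with 233, 167 and 72 CPM in replicate 2 of C1, C2 and WT and 50.4, 33.7 and 15.7 CPM in replicate 1. ST3GAL4 was lower in both clones than in WT within each number. Its levels were 96.3, 121 and 169 CPM in replicate 2 of C1, C2 and WT. In replicate 1 they were 56.2, 48.3 and 71.7 CPM in that order. ST3GAL5 and C1GALT1C1 were higher in both clones within each number.

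HSD11B1, which turns inactive cortisone into cortisol, was at 2.64 and 2.65 CPM in C1, 1.94 and 4.58 CPM in C2, and 0.716 and 0.872 CPM in WT. HSD11B2, the enzyme of the opposite reaction, lay below WT in every clone library, at 0.969 and 1.07 CPM in C1, 0.972 and 1.11 CPM in C2, and 2.73 and 1.96 CPM in WT. The glucocorticoid receptor gene NR3C1 was below WT as well, at 72.1 and 68.7 CPM in C1, 76.1 and 72.9 CPM in C2, and 81.6 and 108 CPM in WT. Its target genes FKBP5 and TSC22D3 overlapped between groups. HGD, an enzyme of tyrosine breakdown, was at 2.4 and 1.47 CPM in C1, 1.34 and 3.05 CPM in C2, and 0.163 and 0.472 CPM in WT. With 5 and 13 reads in WT, HGD was the least measured member there. HPD, the enzyme before it, lay below WT in all clone libraries at very low levels, with 0.0538 and 0.067 CPM in C1, 0.101 and 0.123 CPM in C2, and 0.228 and 0.291 CPM in WT. TAT stayed at or below 0.215 CPM, and TAT, FAH and GSTZ1 overlapped between groups. GSTZ1 was lower in both clones than in WT within each replicate number.

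SLC1A1, a glutamate and aspartate transporter, was at 122 and 208 CPM in C1, 103 and 134 CPM in C2, and 49.6 and 48 CPM in WT. In both clones replicate 2 was higher, while the WT libraries were alike. SPATA6L, which overlaps SLC1A1 on the opposite strand in GENCODE 29, was at 9.13 and 7.9 CPM in C1, 8.01 and 7.69 CPM in C2, and 7.65 and 7.05 CPM in WT. The neutral amino acid transporters SLC1A4 and SLC1A5 of the same family overlapped between groups. For both, C1 was above WT and C2 below WT within each replicate number. SLC1A5 was at 332 and 577 CPM in C1, 171 and 400 CPM in C2, and 291 and 472 CPM in WT. SLC22A20, which encodes an organic anion transporter in mouse and is typed as a unitary pseudogene in GENCODE 29, was at 11 and 14.5 CPM in C1, 9.18 and 21.9 CPM in C2, and 4.03 and 3.63 CPM in WT. Of 7 tested SLC22 relatives none lay above WT in all clone libraries, and SLC22A4, SLC22A5 and SLC22A31 lay below.

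F5, coagulation factor V, was at 123 and 169 CPM in C1, 111 and 115 CPM in C2, and 47.3 and 47.7 CPM in WT. WT libraries were nearly equal and C1 replicate 2 was the highest. MCFD2, which with LMAN1 carries factor V out of the endoplasmic reticulum, lay above WT in all clone libraries, at 384 and 406 CPM in C1, 354 and 372 CPM in C2, and 291 and 331 CPM in WT. PROS1 and PROC, of the anticoagulant pathway that cleaves factor V, lay below WT. PROS1 was at 18.3 and 17.9 CPM in C1, 15.5 and 16.4 CPM in C2, and 23 and 24.8 CPM in WT.

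PSG1 is a pregnancy-specific glycoprotein, a family secreted by the placenta whose near-identical genes lie side by side on chromosome 19, so the split of reads between them is uncertain. PSG1 was at 2.02 and 2.75 CPM in C1, 2.18 and 1.51 CPM in C2, and 0.488 and 0.436 CPM in WT. PSG3, its neighbour, was at 29.3 and 49.2 CPM in C1, 19.4 and 34.1 CPM in C2, and 7.55 and 11.1 CPM in WT, below the limit of 2 times in C2 replicate 1 alone. PSG9 was at 6.43 and 3.82 CPM in C1, 7.81 and 9.01 CPM in C2, and 1.4 and 3.2 CPM in WT. All 3 lay above WT in every clone library, whereas PSG6 and PSG4 overlapped with WT.

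RP11-527H14.3, LINC01444 in GENCODE 29 and on chromosome 18, was at 12 and 10.7 CPM in C1, 11.4 and 10.5 CPM in C2, and 2.15 and 2.58 CPM in WT, the second widest gap of the list at 4.07 times. RP11-527H14.2, LINC01443 in GENCODE 29, overlaps it on the opposite strand, so that their reads cannot be told apart without strand, and missed the level limit, at 0.7 and 1.04 CPM in C1, 0.57 and 0.8 CPM in C2, and 0.13 and 0.218 CPM in WT. RP11-230G5.2, on chromosome 12, was at 29.7 and 14.6 CPM in C1, 27.5 and 19.7 CPM in C2, and 6.6 and 2.62 CPM in WT. In all 3 groups its replicate 1 was the higher library. On the opposite strand it overlaps MSRB3, whose largest count in any library was 183, and AC090023.1 and LINC02454, with largest counts of 12 and 48.

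Just inside the limit of 2 times stood CYSLTR1 at 2.03, SLC1A1 at 2.08 and RP11-230G5.2 at 2.21. Just outside stood LPAR6, a receptor of lysophosphatidic acid, at 2 when rounded, and RP3-340N1.2 at 1.98. LPAR6 was at 3.66 and 2.14 CPM in C1, 2.38 and 4.43 CPM in C2, and 1.07 and 1.05 CPM in WT, so its pattern was that of the members.

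**Figure D2:**
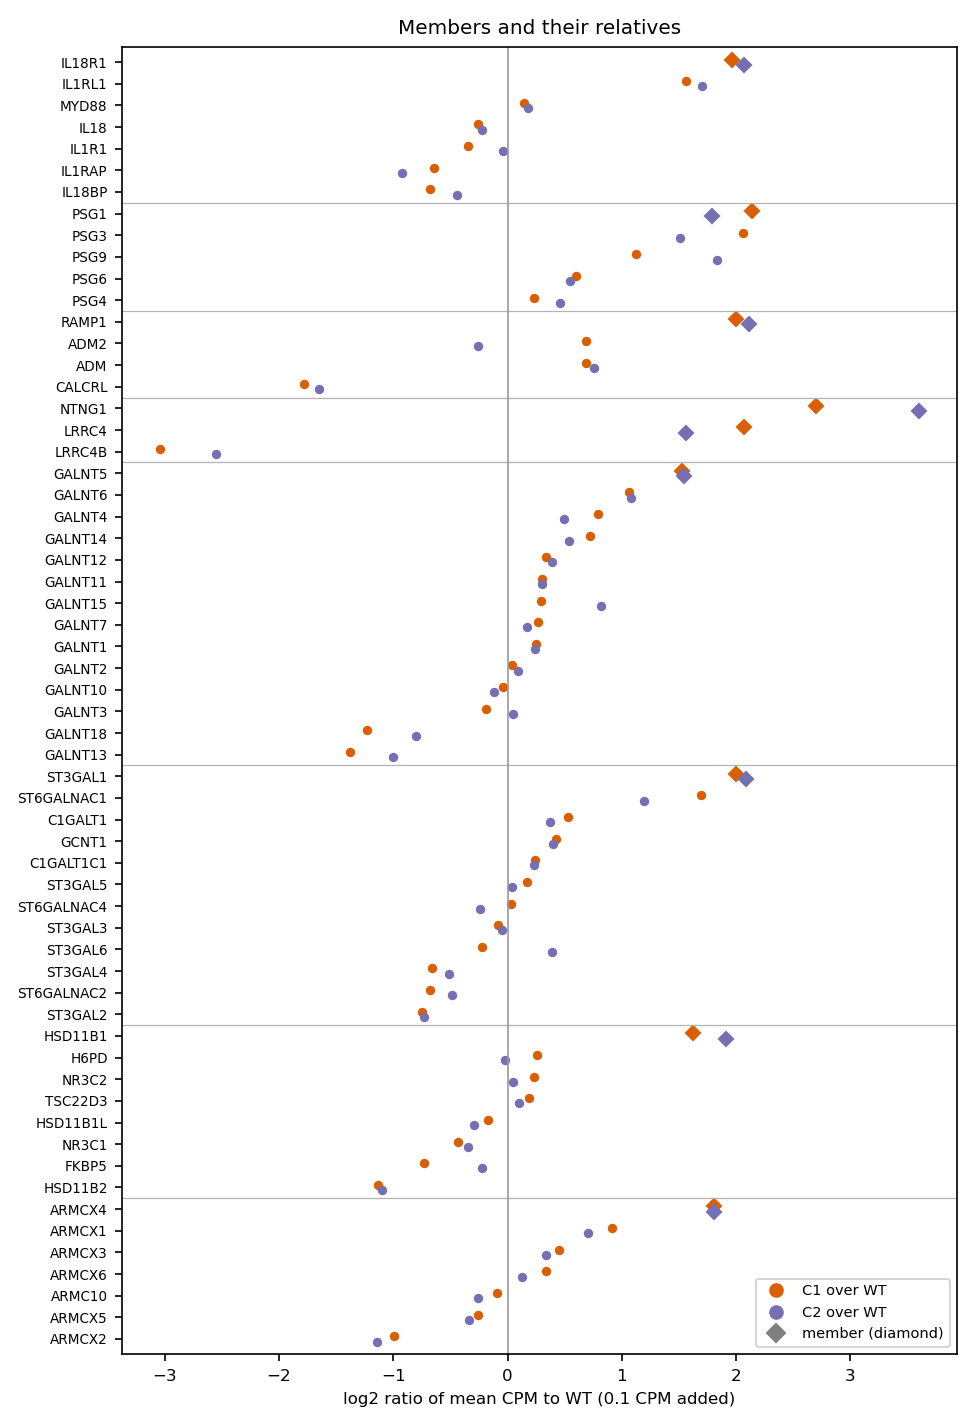
Log2 ratio of mean CPM to WT, with 0.1 CPM added, for 8 member groups (LRRC4 is drawn with NTNG1) and their tested relatives, in C1 and in C2, both against the same WT libraries. Diamonds are members and circles relatives, and most relatives lie near 0. Among those further out, IL1RL1, PSG3, PSG9, ST6GALNAC1 and GALNT6 lie to the right with their members. CALCRL, LRRC4B, HSD11B2, GALNT13, GALNT18 and ARMCX2 are among those to the left.

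Relatives were listed in 17 lists, 1 of them shared by NTNG1 and LRRC4, after the members were known, and get no test. Of the 89 tested relatives, 14 (15.7%) lay above both WT libraries in all 4 clone libraries and 17 (19.1%) below, against 7.3% above and 17.1% below among all 17129 tested genes. Their median log2 ratio to WT was 0.03 in C1 and -0.04 in C2, and that of all tested genes was -0.10 in both. By the symbol patterns of wider families, 14 members fell into a listed family. The pattern for G protein-coupled receptors missed CYSLTR1. Of the 148 tested genes that it took in, 14 lay above WT in all clone libraries (9.46%) and 25 below (16.9%). Among other tested genes of the 11 families that hold members by these patterns, 4.76% to 15.4% lay above WT in all clone libraries and 13.5% to 24.3% below. In none was the share above larger than the share below. Of 4 families, 13 of 112 glycan enzymes lay above (11.6%) and 17 below (15.2%), 79 of 761 kinases, phosphatases and GTPase regulators above (10.4%) and 103 below (13.5%), 14 of 263 solute carriers above (5.32%) and 58 below (22.1%), and 3 of 63 axon guidance genes above (4.76%) and 11 below (17.5%).

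Along the chromosomes the members were scattered. They lay on 12 chromosomes, with 3 each on chromosomes 1, 2 and 12. The 2 nearest expressed genes on each side, ordered by GENCODE 29, gave 80 neighbours, and no member was a neighbour of another. Of these 80, 12 (15%) lay above WT in all clone libraries and 7 (8.75%) below, against 7.67% and 16.4% of the 13904 genes at a mean of 1 CPM that were placed (7.74% and 16.4% of all 14202 at that level). The 12 hold PSG3 and PSG9, relatives of PSG1, and SPATA6L, which overlaps SLC1A1. GLIS3, a zinc finger factor before SLC1A1 named after its values were seen, was at 72.6 and 80.5 CPM in C1, 73 and 73.6 CPM in C2, and 41 and 53.1 CPM in WT. The genes on either side of PRR5L, COMMD9 and TRAF6, had overlapping groups.

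**Figure D3:**
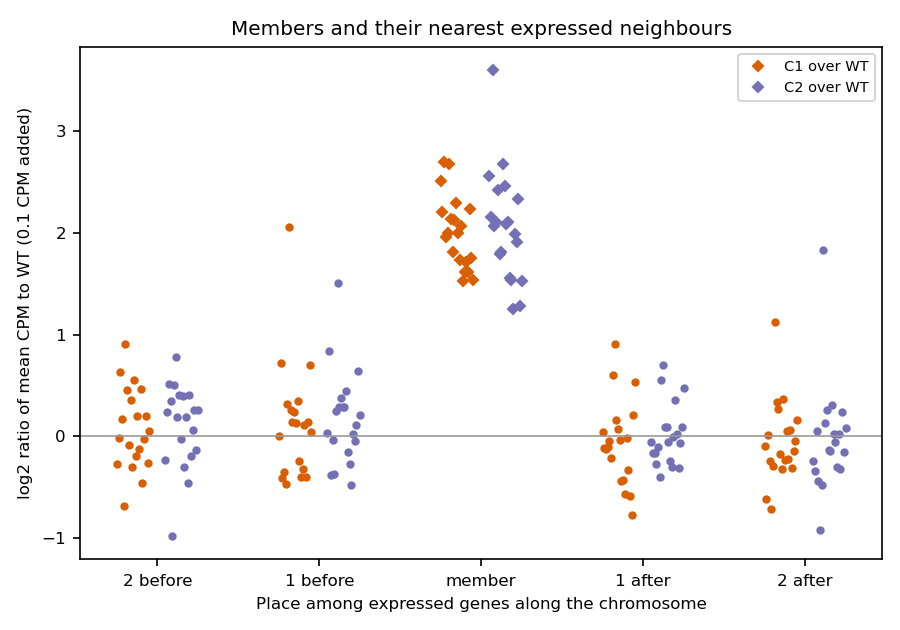
Log2 ratio of mean CPM to WT, with 0.1 CPM added, in C1 and in C2 for the members (diamonds, centre) and for the nearest 2 expressed genes before and after each along its chromosome (circles). The neighbours' medians are -0.03 in C1 and 0.02 in C2, and the ones furthest up are PSG3 and PSG9 beside PSG1.

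Whether the clones differ from each other was tested with edgeR's quasi-likelihood test over all 17129 genes. This is not the contrast that chose the members, but each clone library had to meet the limits, which kept out genes that are much lower in 1 clone, so the members' values are a description and their count is not read against all genes. No gene was called for C2 against C1, 0% of those tested, while 61 had an unadjusted p under 0.05 in edgeR. DESeq2 also called 0, with 56 at that level. Both counts are far below what a limit of 0.05 would give with no difference, so the lack of calls cannot show that the clones are alike. The fit had no term for the replicate number and kept that difference in the spread. With the term, 642 genes had an unadjusted p under 0.05 in edgeR and 0 were called. None of the 20 members was called. Their log2 differences ran from -0.51 to 0.91 with a median of 0.06, 13 above 0 and 7 below. NTNG1 had the largest, at 0.91 (SE 0.43, 95% interval -0.14 to 1.96, adjusted p 1 in edgeR). LRRC4 had the lowest, at -0.51 (SE 0.22, interval -1.06 to 0.03), followed by SLC1A1 at -0.47 (SE 0.27, -1.12 to 0.19). Intervals were narrowest for F5 (-0.83 to 0.11) and GALNT5 (-0.49 to 0.51) and widest for HGD (estimate 0.16, SE 0.59), so differences of 2-fold between the clones are outside the interval for F5 and GALNT5 but inside it for HGD. Each interval stands for 1 gene taken alone.

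Replicate 2 was also set against replicate 1, with the same limit: the rule compares the lowest clone library with the highest WT library, and so kept out genes with a large difference between replicates. The members' counts here are a description and are not read against those of all genes. edgeR called 4229 of 17129 genes, 24.7%, between replicate 2 and replicate 1, with 12.5% higher and 12.2% lower. Of the members 1 of 20 was called, RP11-230G5.2, which fell by 0.99 on the log2 scale (SE 0.19, 95% interval -1.40 to -0.58, adjusted p 0.0026 in edgeR). It was at 14.6, 19.7 and 2.62 CPM in replicate 2 of C1, C2 and WT, and 29.7, 27.5 and 6.6 CPM in replicate 1, lower in 3 of 3 groups. BTBD11 had a difference of 0.75 (SE 0.26, adjusted p 0.052 in edgeR) and CALB2 of 0.42 (SE 0.16, adjusted p 0.078 in edgeR), neither past the threshold. Over all members the median was 0.13, with 13 above 0 and 7 below. In every group replicate 2 was above replicate 1 for 9 members, against 33.7% of all tested genes, and below it for 1, against 23.3%. Without C2 replicate 1 the count over all genes was 617 and without C2 replicate 2 it was 730, and the members called numbered 1 to 4 when single libraries were left out. Proliferation genes moved with the replicate number, as given above, and their part in these values was not tested.

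**Figure D4:**
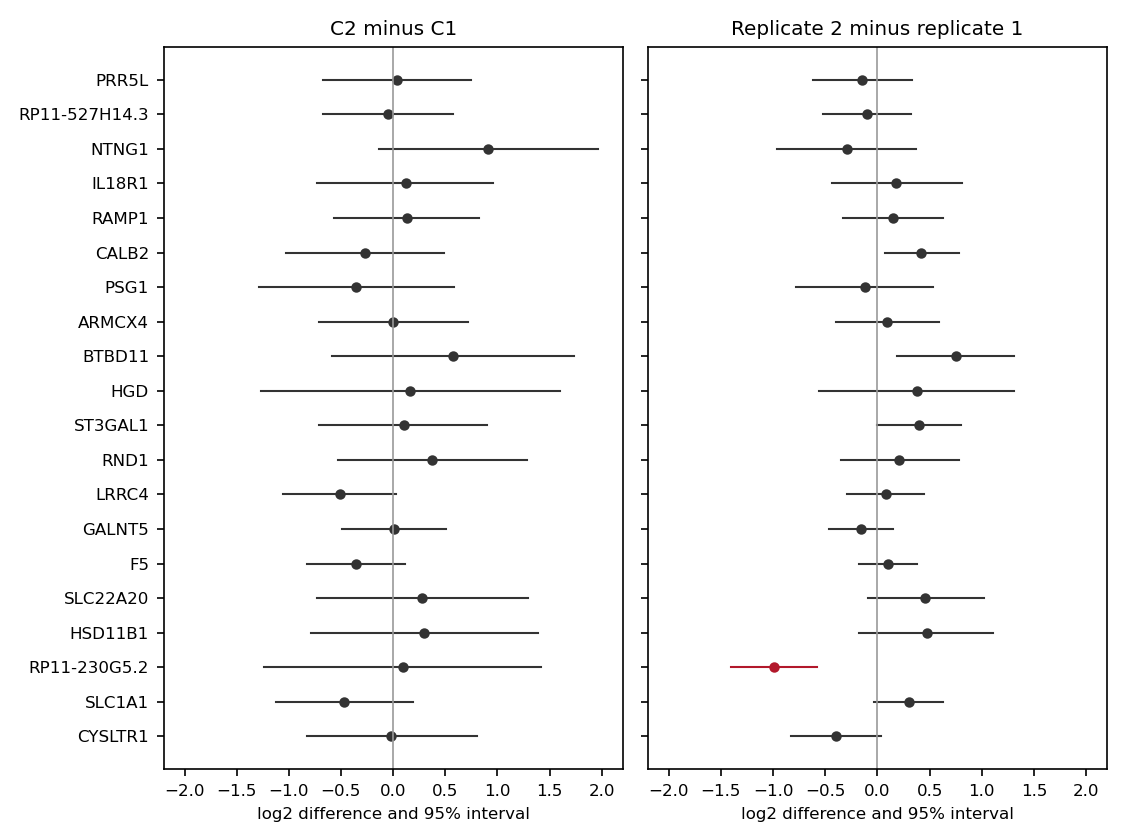
Log2 differences of the 20 members with 95% intervals from edgeR, for C2 minus C1 (left) and replicate 2 minus replicate 1 (right). All intervals on the left cross 0; on the right RP11-230G5.2, in red, is the only member past the adjusted threshold, at -0.99, while the intervals of CALB2 and BTBD11 also lie above 0.

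The libraries differed in how they ranked the clones. C2 replicate 2 held the highest of the 4 clone values for 11 members and C2 replicate 1 the lowest for 10, C1 replicate 1 the highest for 5 and C1 replicate 2 the highest for 4. Shares over all genes were not computed, so these counts are a description and no trait of the members. SLC22A20 shows the spread within C2, with 21.9 CPM in replicate 2 and 9.18 CPM in replicate 1, and RND1 and HSD11B1 had the same order. Between members, compared per kilobase of exon, mean levels in the clones ran from 0.352 CPM per kilobase for BTBD11 in C1 to 63.1 for CALB2 in C1. In WT they ran from 0.0707 for BTBD11 to 12.2 for SLC1A1. The most abundant members beside CALB2 were SLC1A1, at 41.2, 29.6 and 12.2 CPM per kilobase in C1, C2 and WT, and F5, at 20.4, 15.8 and 6.63 in the same order.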

How the data were processed

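For 6 libraries the authors deposited unnormalised counts of reads by gene. Tools listed by the submitters' processing notes are HTSeq 0.5.3, STAR 2.5.0a and cutadapt 1.6, with the build hg19; strand setting and annotation release are not given in the sources used here, so overlapping genes cannot be told apart. HTSeq totals that are not genes, 21.3% to 22.4% of the reads listed, were left out of library sums. CPM was computed on the sum over gene rows. Tests used R 4.3.3, edgeR 4.0.16 with limma 3.58.1 (filterByExpr, TMM, robust quasi-likelihood F test, 1 fit over all 6 libraries, Benjamini-Hochberg over 17129 genes, threshold 0.05), and DESeq2 1.42.0 was an alternative. The fits were also run on simulated counts with no group or replicate difference except in genes changed on purpose. That run cannot show how the tests act with the replicate difference of these libraries. C2 against C1 was fitted with 1 mean per group, and replicate 2 against replicate 1 with group as a term. Groups came from sample titles. Exon length, gene order and overlaps came from GENCODE 29, matched by stable ID, and promoters from RefSeq. The rule for named genes takes the widest gaps, the highest levels, called members and those nearest the limit, and skips clone-based and pseudogene loci; the remaining members are named too, to account for each. Relatives were listed by hand after the members were known. Log2 ratios to WT add 0.1 CPM to each mean. Members and lists were chosen with earlier results of these data known. Intervals cover the spread between these libraries only. Some items are not reported here.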

Additional observations from a re-analysis of the deposited data

How the results depend on the processing

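The list of members held 20 genes by the rule, 64 with a fold limit of 1.5, 8 with a limit of 3 and 109 when means of each clone over the mean of WT replaced the lowest and highest libraries. Leaving out 1 library gave 20 to 59 genes. Other level minimums (0.5 and 2 CPM) and TMM scaling stayed within 1.5 times of the count, and all 20 members remained under TMM. The TMM factors were higher in WT (1.018 and 1.08) than in the clones (0.9532 to 1.003). TMM could thus only raise a member's ratio to WT. For C2 against C1, 0 genes and 0 members were called under RLE size factors, no filter, DESeq2, the fit with the replicate block (0 called, 642 at an unadjusted p under 0.05 against 61) and without each of the 6 libraries; the replicate block changed no call. Same-numbered libraries share only a number in the labels; their deviations from the group means correlated by 0.584 (C1 and WT), 0.634 (C2 and WT) and 0.701 (C2 and C1), a hint from the data and not from the design. For replicate 2 against replicate 1 the count of called genes was 617 to 4849 without single libraries, the lowest without C2 replicate 1 (617) and C2 replicate 2 (730). Members called were 1 in the fit as reported, 2 with no filter, 3 with C1 and C2 libraries only, and 1 to 4 without single libraries; the cause was not tested. CALB2 (0.42, 0.67 and 0.68), BTBD11 (0.94) and SLC22A20 (0.75 and 0.76) passed the threshold in some of these. With WT counts of 5 to 22 reads for HGD, IL18R1, PSG1, BTBD11 and NTNG1, ratios of these genes are the least precise.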
